A study of Homo sapiens with 10 samples.

Results

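The 38 integrin and laminin genes described here are the RefSeq protein-coding genes whose symbols mark integrin alpha chains (ITGA), integrin beta chains (ITGB) and laminin alpha, beta and gamma chains (LAMA, LAMB, LAMC), out of 19974 protein-coding genes on the chromosomes analysed. The rule that chose them uses symbols and no measured value, though it was set with earlier results of these data known. By the roles known from textbooks they were divided into 17 integrin chains of matrix adhesion, 8 chains of leukocyte integrins, 1 platelet chain (ITGA2B) and 12 laminin chains.

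Integrins are receptors made of 1 alpha and 1 beta chain that cross the cell membrane, bind matrix proteins or other cells outside, and join the actin cytoskeleton inside through adaptor proteins. Laminins are trimers of 1 alpha, 1 beta and 1 gamma chain, and are main components of the basement membrane. The retinal pigment epithelium is a single cell layer that rests on such a membrane, Bruch's membrane, and uses the alphaV beta5 integrin to bind shed photoreceptor tips for uptake. The beta2 and beta7 integrins, with their alpha chains, are known from white blood cells.

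CUT&Tag, in which an antibody guides a transposase to cut and tag the DNA around its target, was made in wild-type hTERT-RPE1, an established line of human retinal pigment epithelial cells immortalised with telomerase; no treatment is named in the labels. A first antibody recognised RNA polymerase II with phosphate on Ser5 of the repeats in its tail, the form that begins transcripts (6 libraries, Pol II below), and a second recognised H3K4me1, a histone mark of enhancers and promoter borders (4 libraries). For each target the authors deposited 2 merged lists of peaks, called list 1 and list 2 here. Those of Pol II held 49351 and 47180 peaks, and those of H3K4me1 123666 and 124465. The labels do not say whether the lists come from separate cultures, the lists hold no read counts, and so the depth behind each value is unknown. Of 12 genes known to mark retinal pigment epithelium, 3 (RDH5, PMEL and STRA6) had Pol II peaks of each list within 1 kb of an end, while RPE65, TYRP1, RLBP1, SERPINF1 and TTR had Pol II of neither list there and no bases of both lists inside. Of 10 leukocyte markers 1 had Pol II of each list at an end, LAPTM5, at a fold of 7.09 and 9.09, and of 4 platelet markers 0. The leukocyte marker PTPRC had a peak of list 1 alone at an end and 869 bases of both lists inside. Of 5 endothelial markers 1 had Pol II of each list at an end, of 4 epithelial markers 2 and of 5 mesenchymal markers 3. The share over all protein-coding genes was 39.4%. The 2 epithelial markers were KRT8 and KRT18. Their gene models overlap and their folds were the same, 5.82 and 3.81, so they are not independent.

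A gene end was counted as carrying shared Pol II when a peak of each list lay within 1 kb of it. The end can be the start or the other end of the gene model, and peaks there can belong to a neighbour. By this rule 10 of the 38 genes (26.3%) carried shared Pol II, against 39.4% of all protein-coding genes, and against 43.1% of the 13546 genes at least as long as the shortest member, LAMB2. The 10 were ITGA1, ITGA3, ITGA5, ITGA10, ITGAV and ITGB8 among the adhesion chains, ITGB2 and ITGB7 among the leukocyte chains, and LAMB2 and LAMC1 among the laminins. A further 5 had a peak of 1 list alone, and 23 had none, against 2368 and 9740 of the 19974 coding genes. H3K4me1 of both lists lay within 5 kb of an end at 34 of 38 genes, against 78.7% of all genes. ITGA8, ITGAM, LAMA1 and LAMC3 were the 4 without it. The higher share held only for the wider window: within 1 kb of an end it was 23 of 38 (60.5%), against 63.9% of all genes.

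Inside the gene models the order for Pol II was the other way round. Bases shared by both Pol II lists were found in 26 of 38 genes (68.4%), against 49.3% of all genes and 60.0% of the genes at least as long as the shortest member. Most members are far longer than that minimum, so the latter share is not matched for length. H3K4me1 of both lists lay inside 35 of 38 genes, against 73.6% of all genes. The members were long, with a median of 79243.5 bp against 24170.5 bp for all coding genes. Per kb of summed length, 9.55 bases of the members lay in Pol II of both lists, against 6.55 over all coding genes, and 48.9 bases lay in H3K4me1, against 35.7. Neither share was tested, and length was taken into account only by these ratios.

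**Figure D1:**
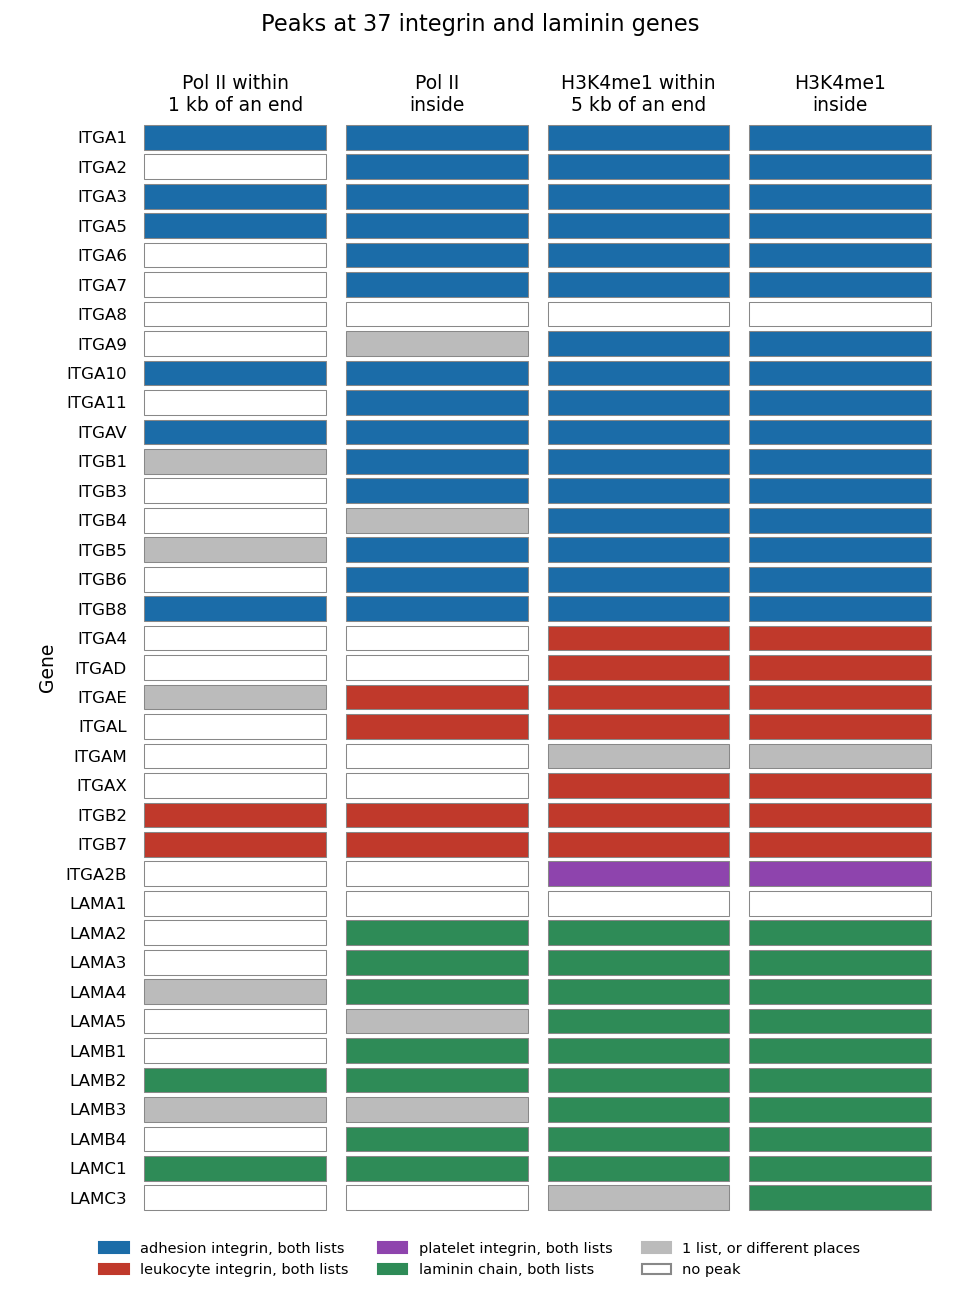
Presence of peaks at 37 of the 38 genes (vertical axis), for Pol II within 1 kb of an end, Pol II inside, H3K4me1 within 5 kb of an end and H3K4me1 inside (horizontal axis). A coloured box stands for peaks of both lists, grey for 1 list or for lists at different places, and white for none; the first column is coloured for 10 genes and the last for 34.

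Sequences at start sites are shown for members whose Pol II signal differed, as read from RefSeq (GRCh38.p14), which holds at least 1 start for 26 of the 38 genes. Each runs 5′ to 3′ along the gene, from 250 bases before the start to the base 50 from it. Capitals mark letters searched for on both strands: AP-1 (TGANTCA), TEAD (GGAATG), the GC box (GGGCGG), the TATA box (TATAAA), the CCAAT box (CCAAT), RUNX (TGTGGT) and PU.1 (GAGGAAGT). The first 3 belong to genes with shared Pol II at that start, namely ITGAV (chr2:186589806-186590105, plus strand), ITGA5 (chr12:54419217-54419516, minus strand) and LAMB2 (chr3:49133001-49133300, minus strand).
ITGAV: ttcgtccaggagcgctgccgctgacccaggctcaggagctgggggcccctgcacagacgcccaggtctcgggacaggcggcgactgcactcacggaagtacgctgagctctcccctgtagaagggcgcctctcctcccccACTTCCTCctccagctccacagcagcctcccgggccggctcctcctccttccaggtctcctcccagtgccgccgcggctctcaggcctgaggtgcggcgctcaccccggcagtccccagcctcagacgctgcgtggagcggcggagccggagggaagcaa
ITGA5: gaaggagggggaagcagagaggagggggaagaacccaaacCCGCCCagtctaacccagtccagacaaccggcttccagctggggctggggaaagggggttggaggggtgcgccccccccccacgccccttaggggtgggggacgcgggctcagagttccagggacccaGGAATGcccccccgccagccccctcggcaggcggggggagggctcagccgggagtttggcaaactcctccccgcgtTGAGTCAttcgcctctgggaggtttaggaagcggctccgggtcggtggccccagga
LAMB2: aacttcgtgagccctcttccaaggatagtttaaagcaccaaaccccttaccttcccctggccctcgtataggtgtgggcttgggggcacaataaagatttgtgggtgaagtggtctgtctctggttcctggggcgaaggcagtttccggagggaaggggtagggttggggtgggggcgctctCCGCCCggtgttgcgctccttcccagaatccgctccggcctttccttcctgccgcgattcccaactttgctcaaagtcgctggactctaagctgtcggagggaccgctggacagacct

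The next 3 show the beta chains whose outermost start had a peak of 1 list alone. They are the outer start of ITGB5 (chr3:124901369-124901668), an inner start of ITGB5 with Pol II of both lists (chr3:124887316-124887615) and the outer start of ITGB1 (chr10:32958181-32958480), all on the minus strand.
ITGB5 outer: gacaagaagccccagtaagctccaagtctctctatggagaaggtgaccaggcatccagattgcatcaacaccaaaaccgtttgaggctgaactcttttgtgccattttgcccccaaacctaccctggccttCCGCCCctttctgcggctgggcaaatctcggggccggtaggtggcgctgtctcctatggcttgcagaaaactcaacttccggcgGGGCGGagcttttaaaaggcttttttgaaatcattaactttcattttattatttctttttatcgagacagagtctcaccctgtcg
ITGB5 inner: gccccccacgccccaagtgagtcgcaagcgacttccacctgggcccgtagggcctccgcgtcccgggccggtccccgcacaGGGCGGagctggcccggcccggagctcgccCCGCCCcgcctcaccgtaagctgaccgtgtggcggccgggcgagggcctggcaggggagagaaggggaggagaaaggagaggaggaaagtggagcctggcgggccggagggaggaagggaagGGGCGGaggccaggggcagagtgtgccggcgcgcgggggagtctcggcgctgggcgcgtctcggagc
ITGB1: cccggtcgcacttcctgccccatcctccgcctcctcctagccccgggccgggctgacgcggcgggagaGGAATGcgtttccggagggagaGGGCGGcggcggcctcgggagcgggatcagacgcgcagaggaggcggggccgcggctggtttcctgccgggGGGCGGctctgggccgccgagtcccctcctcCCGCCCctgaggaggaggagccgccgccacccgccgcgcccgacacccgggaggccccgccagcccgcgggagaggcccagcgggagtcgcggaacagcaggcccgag

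The last is that of ITGAM (chr16:31259725-31260024, plus strand), the alpha chain of the complement receptor of neutrophils and macrophages, which had no Pol II peak in either list at its ends or inside.
ITGAM: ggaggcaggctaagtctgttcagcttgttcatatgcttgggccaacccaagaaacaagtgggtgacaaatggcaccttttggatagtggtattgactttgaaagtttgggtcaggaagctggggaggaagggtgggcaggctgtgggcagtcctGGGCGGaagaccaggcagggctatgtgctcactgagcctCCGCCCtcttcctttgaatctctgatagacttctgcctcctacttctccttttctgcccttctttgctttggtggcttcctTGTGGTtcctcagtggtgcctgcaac

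Among these windows, ITGA5 held an AP-1 match that began 6 bases before its start and reached the start base. Its TEAD match began 82 bases before the start and its GC box 210 bases before it. ITGB1 held a TEAD match and 3 GC boxes, and the inner ITGB5 start 3 GC boxes. Over the outermost listed starts of the 26 genes, a GC box was found in 14 (53.8%), against 56.3% of the 22132 windows of coding genes and 45.0% of all 34961 windows of that length in the table. The shares that follow are set against coding windows, where a gene can have several windows, while each member has 1. TEAD letters were in 4 (15.4% against 12.2%), AP-1 letters in 2 (7.69% against 6.15%) and RUNX letters in 2 (7.69% against 11.3%). CCAAT was in 4 (15.4% against 34.6%), TATAAA in 1 (3.85% against 9.46%) and the PU.1 letters in 3 (11.5% against 2.63%). Those 3 were ITGA11, ITGAV and ITGB7, of which ITGA11 had no Pol II at its ends. A match is a run of letters and was not tested as a binding site.

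Among adhesion chains that bind collagen, fibronectin or vitronectin, ITGAV had the highest mean Pol II fold at a listed start. The alphaV chain pairs with 5 beta chains listed here and binds ligands with an RGD motif. Its peaks had a deposited fold enrichment of 7.11 in list 1 and 5.79 in list 2, with summits 61 and 24 bp from the start, in or near the window printed above. The gene model of LOC124906105 also ended 99 and 136 bp from these summits, so the signal cannot be assigned to ITGAV alone. A second listed start 10149 bp inside ITGAV had no Pol II peak of either list within 1 kb, though H3K4me1 of both lists was there.

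ITGB8, whose chain pairs with alphaV and is known for activating latent TGF-beta, had folds of 7.29 and 4.99. ITGA1, a collagen and laminin receptor chain, had 4.33 and 6.74. By the strongest peak of each list, it was the single member of the 10 with the higher fold in list 2. The summits at ITGA1 lay 57 and 20 bp from the end of both ITGA1 and PELO, a ribosome rescue factor whose model ends at the same place.

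ITGA5, the alpha chain of the main fibronectin receptor, had low folds of 3.10 and 2.49, with summits 195 and 202 bp outside the start. The model of another gene overlaps these peaks, so the signal cannot be assigned to ITGA5 alone. The mean fold of ITGA5 lay at percentile 1.37 of the 7866 coding genes with Pol II at an end. The other end of ITGA5 also had a peak of each list, at 2.16 and 1.71. ITGA3, a laminin receptor chain, had 3.43 and 2.65 at the strongest peak of each list, but these are separate peaks that do not overlap. Where the lists did overlap near that end of ITGA3, at chr17:50056834-50057459, the folds were 2.42 and 2.65. The other end of ITGA3 also had a peak of each list, with folds of 2.01 and 2.29 at the strongest, again separate peaks. No start of ITGA3 was used here, so which end is the start was not read. ITGA5 and ITGA3 had the lowest mean folds of the 10 genes, and which of them was lower depends on the ITGA3 peak taken. At neither gene did both H3K4me1 lists have a peak within 1 kb of an end, though both did within 5 kb.

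ITGA10, a collagen receptor chain of cartilage, had high folds of 11.6 and 8.11 (percentile 96.2), but at the end opposite its start. These summits lay 986 and 774 bp from that end, inside the gene. At its start only list 1 had a peak, with a fold of 6.29 and a summit 176 bp outside the gene. The call for ITGA10 therefore does not rest on its start.

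Of the laminin genes, LAMC1, the gamma chain of most laminins, had folds of 6.07 and 4.38, with summits 1015 and 1017 bp outside its start. LAMB2, the beta chain of laminins at synapses and in the kidney filter, had 5.28 and 3.86 at its start and 3.32 and 3.14 at its other end. At the latter the summits lay 304 and 231 bp from an end of USP19, and at its start 0 and 269 bp from LOC124909377. None of the 5 laminin alpha genes had shared Pol II at an end.

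ITGB2, the beta chain shared by the alphaL, alphaM, alphaX and alphaD integrins of leukocytes, had the highest folds of all members, 14.2 and 10.98. This was percentile 99.6 of the coding genes with Pol II at an end. The summit lay 119 bp outside the gene end in both lists, and 746 bp from an end of ITGB2-AS1, an antisense gene. The strand of the signal is not known, so ITGB2 and ITGB2-AS1 cannot be told apart. H3K4me1 summits lay 109 and 105 bp from the same end, with folds of 5.24 and 6.81. ITGB7, the beta chain of the gut-homing integrins, had Pol II folds of 6.35 and 5.60, with summits 854 and 1200 bp inside its start.

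The alpha partners of these beta chains differed from them. ITGAL, ITGAM, ITGAX, ITGAD and ITGA4 had no Pol II peak of either list within 1 kb of an end. ITGAE, the alpha partner of beta7 on lymphocytes of epithelia, had a peak of list 2 alone within 1 kb, with a fold of 7.07. Its summit lay 1741 bp from the ITGAE end and 771 bp from that of NCBP3. H3K4me1 was present within 5 kb of 7 of the 8 leukocyte genes, against 78.7% of all genes. At ITGA4 and ITGAX it lay at the end itself, with folds of 6.65 and 5.10 for ITGA4 and 6.49 and 5.21 for ITGAX.

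Peaks of 1 list alone were found at ITGB1 (list 2, fold 2.27), ITGB5 (list 1, fold 3.29), LAMA4 (list 1, fold 4.63) and LAMB3 (list 1, fold 4.90), besides ITGAE. ITGB1 is the beta chain of the largest group of integrins. LAMA4 is a laminin alpha chain of vessels and muscle, and LAMB3 belongs to the laminin that anchors the skin to its basement membrane. These genes stand outside the count because the other list had no peak within 1 kb of an end. With a 2 kb window ITGB1, LAMA4 and ITGAE had peaks of both lists. The ITGAE peak lay in a region of both lists, with folds of 8.29 and 7.07. By the strongest peaks, list 1 had the higher fold at 9 of the 10 called members, ITGA3 among them, and at 72.7% of all 7866 coding genes called, so this order is shared by most genes.

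**Figure D2:**
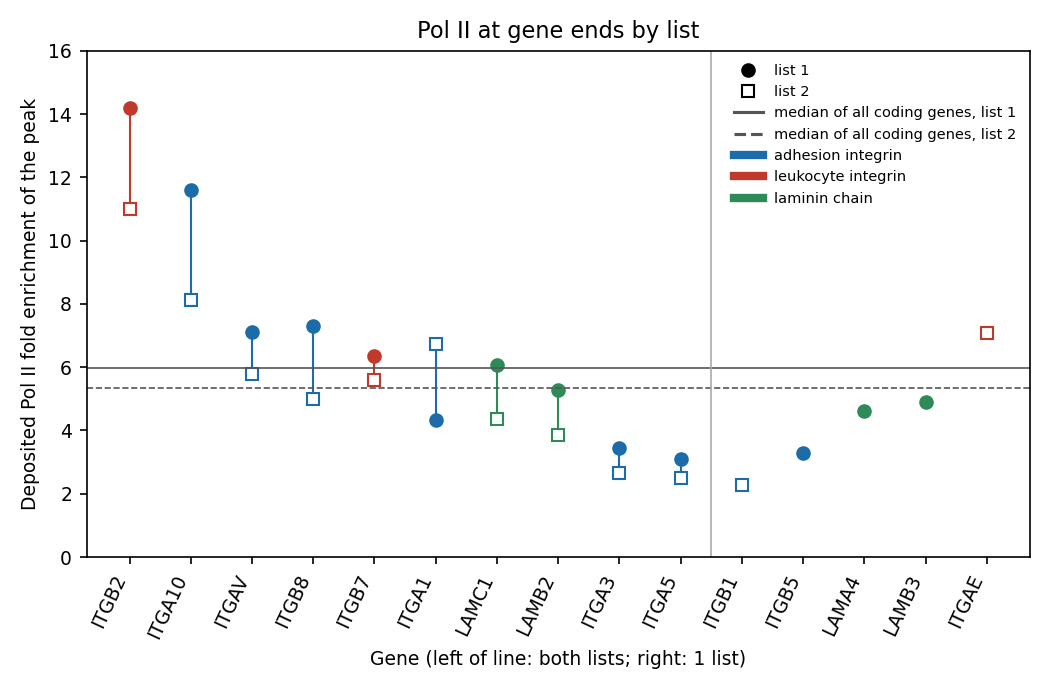
Deposited fold enrichment (vertical axis) of the Pol II peak within 1 kb of an end for each gene (horizontal axis), with filled circles for list 1, open squares for list 2 and horizontal lines for the medians of all coding genes called (5.97 and 5.35). ITGB2 and ITGA10 stand above the rest, and ITGA3 and ITGA5 are the lowest of the 10 genes with both lists; the values of ITGA3 come from separate peaks.

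The adhesion and leukocyte chains were then set side by side. Shared Pol II was at an end of 6 of 17 adhesion genes (35.3%) and 2 of 8 leukocyte genes (25%), both below the 39.4% of all genes. Inside the gene it was found in 14 of 17 adhesion genes and 4 of 8 leukocyte genes, against 49.3% of all genes. The median length was 85989 bp for the adhesion genes and 46653.5 bp for the leukocyte genes. Counts inside the gene were not matched for length. Genes with no Pol II peak of either list at an end or inside were 1 of 17, ITGA8, and 4 of 8, namely ITGA4, ITGAD, ITGAM and ITGAX, against 32.7% of all coding genes. H3K4me1 within 5 kb was nearly as frequent in both classes, at 16 of 17 and 7 of 8, against 78.7% of all genes. These are counts over small classes with no test, and members of a class are not replicates.

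Per kb of gene, the median adhesion gene had 11.6 bases in Pol II of both lists and the median leukocyte gene 0.704. Summed over the class the values were 11.6 and 7.03 bases per kb, so the classes lay closer by sums than by medians. The leukocyte sum came from ITGAE with 1483 bases, ITGB7 with 753, ITGB2 with 586 and ITGAL with 71. Among the adhesion chains the 6 beta genes had 22.04 bases per kb and the 11 alpha genes 7.60. The platelet chain ITGA2B, which forms the fibrinogen receptor with beta3, had no Pol II peak and 627 bases of H3K4me1.

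The 5 members with the most Pol II inside were LAMB1, ITGB5, ITGB1, ITGA5 and LAMC1. LAMB1, a beta chain of many laminins, had 6349 bases in list 1, 6903 in list 2 and 5373 in both, which ranked 97 among all coding genes. ITGB5 had 6867, 7002 and 5030 (rank 113), and ITGB1 4238, 5911 and 2983 (rank 394). None of these 3 genes was counted at an end. ITGA5 had 2562 and 6595 bases, with 2282 in both (rank 678), and list 2 thus covered far more of this gene than list 1. LAMC1 had 1713 in both.

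H3K4me1 covered the most bases in ITGB5 (19059 in both lists) and ITGA11, a receptor chain for fibrillar collagen (14509). The next 3 were LAMA3 (13957), LAMA4 (12120) and LAMA2 (10334), alpha chains of skin, vessel and muscle laminins. LAMA2 is also the longest member, at 633429 bp, and had only 16.3 bases per kb. ITGA10, ITGB7 and ITGB3 led per kb, with 182.0, 148.1 and 146.5 bases. LAMA1 and ITGA8 had none in either list.

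**Figure D3:**
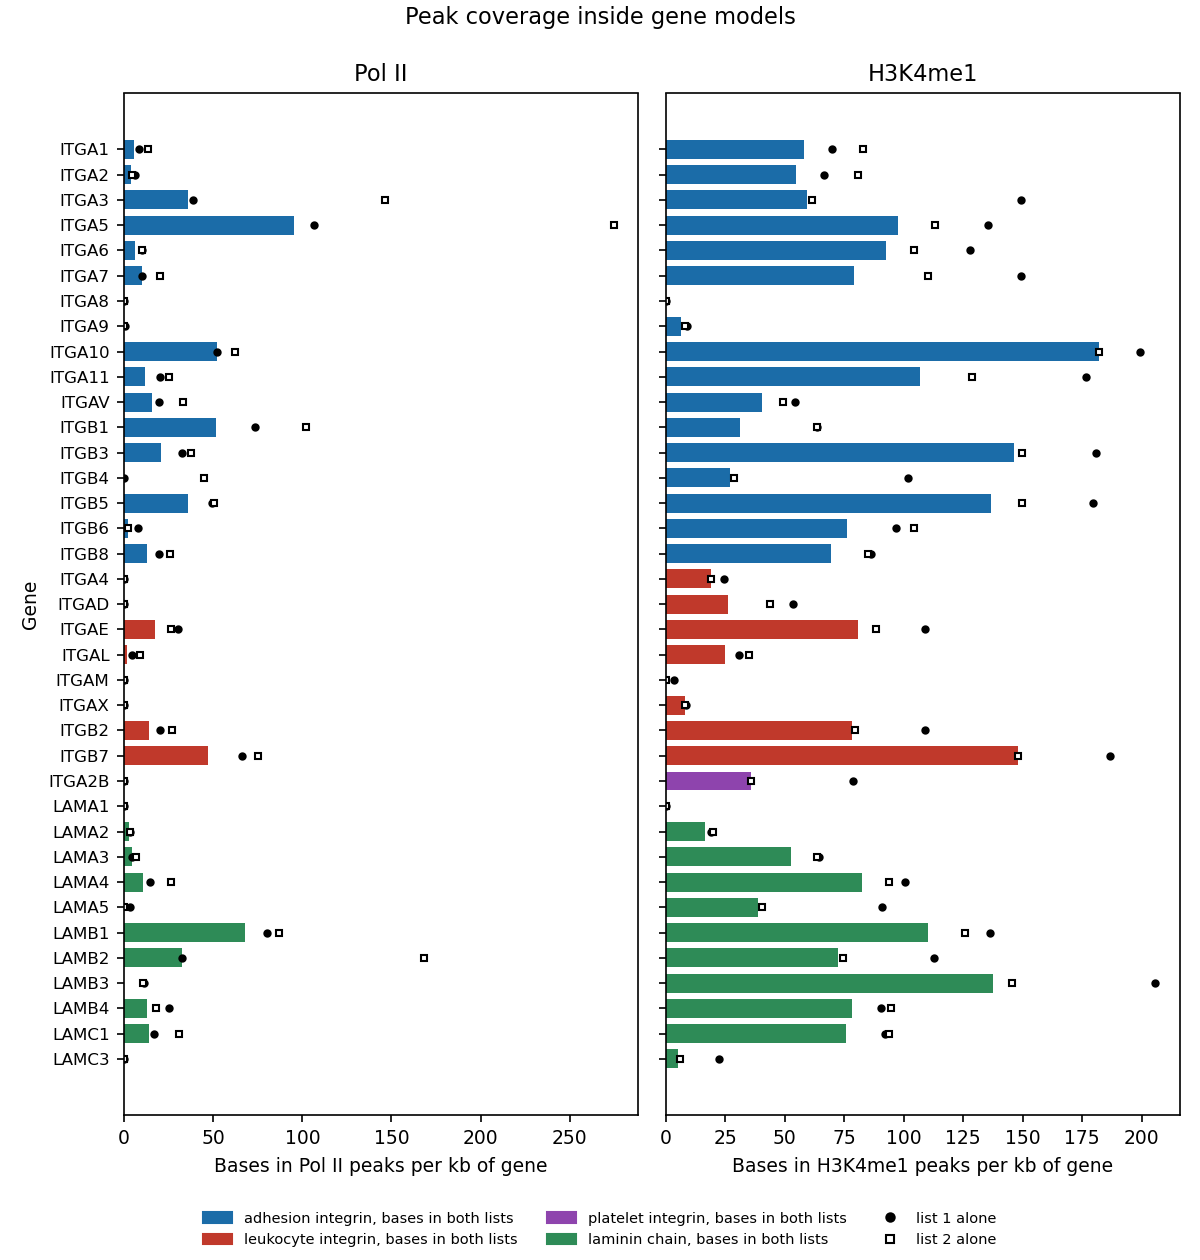
Bases covered by peaks per kb of gene (horizontal axes) for 37 of the 38 genes (vertical axis), for Pol II on the left and H3K4me1 on the right. Bars give bases in both lists and symbols give each list alone; ITGA5 has the longest Pol II bar, with list 2 far above list 1, and ITGA10 the longest H3K4me1 bar.

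Pol II inside these genes formed 91 regions, a region being a merged interval that holds peaks of both lists, and 70 of them lay more than 2 kb from an end of any gene. H3K4me1 of both lists overlapped 78 of the 91 (85.7%), close to the 87.7% of all 30981 Pol II regions. The 13 without it were not spread evenly: 10 of them were among the 17 regions of ITGA3, ITGA5 and ITGB1, and 3 among the 74 regions of all other members. These 3 genes were picked after the values were seen, so the contrast has no test. The 13 regions had a median Pol II fold of 2.97 in list 1 and 2.62 in list 2, against 6.02 and 4.98 for the 78.

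In ITGB1, 4 of 6 internal regions had no H3K4me1 of both lists, and the folds of all 6 stayed between 2.51 and 4.31 in list 1 and between 2.45 and 4.05 in list 2. The region with the highest mean fold was chr10:32938860-32940093, 18754 bp from the outer start. In ITGA5 it was 4 of 7, among them the start region itself. All 7 also overlapped the model of another gene. ITGB5 differed: all 9 of its regions lay on H3K4me1, with folds from 3.04 to 8.33 in list 1. The ITGB5 region nearest to its outer start, chr3:124887230-124887695, covered both inner starts listed by RefSeq and had folds of 3.04 and 4.55.

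LAMB1 held 10 regions over its length, 8 of them on H3K4me1, and its own start had none. The highest, chr7:107966637-107967528, had Pol II folds of 7.94 and 6.33 and H3K4me1 folds of 10.9 and 10.7. LAMC1 had 5 regions, all on H3K4me1, and the region with the highest mean fold, 37218 bp from its start, had folds of 10.03 and 6.85. LAMA3, the alpha chain of the skin laminin, had its highest region 149690 bp from the start end of its gene model, with folds of 13.5 and 10.4. The only start listed for LAMA3 lies 183567 bp from that end, so the region is upstream of the listed start. LAMB4, a little studied beta chain, had 15.3 and 7.99 at chr7:108079551-108080328, which lay 54 bp from an end of LOC105375446. ITGB3, the beta chain of the vitronectin receptor, had 11.02 and 6.97 at a region that overlaps LOC107985029.

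**Figure D4:**
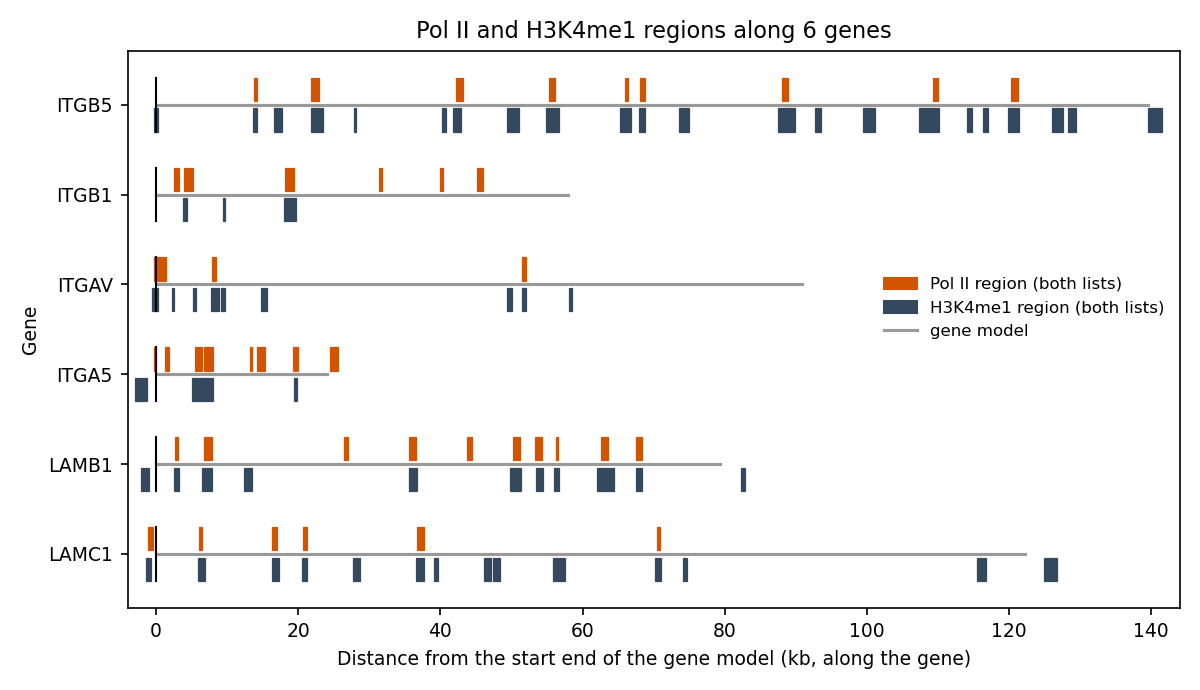
Regions of Pol II (orange) and H3K4me1 (dark blue) along ITGB5, ITGB1, ITGAV, ITGA5, LAMB1 and LAMC1 (vertical axis), by distance in kb from the start end of the gene model (horizontal axis). ITGAV and ITGA5 have a Pol II region at 0, LAMC1 just before it, while the 9 regions of ITGB5, the 6 of ITGB1 and the 10 of LAMB1 lie inside.

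Strong Pol II regions also lay outside some members. A region 19971 bp from the start end of ITGA5, chr12:54439237-54440033, had folds of 13.5 and 11.6, against 3.10 and 2.49 at the start itself. The model of another gene overlaps both places. A region 33458 bp from ITGB2, within SLX9, had 17.9 and 11.1. ITGB6, the beta chain of an epithelial integrin, had no Pol II at an end but 10 regions within 50 kb outside its gene model, the most of any member. Which gene such regions act on was not tested.

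At the listed starts, shared Pol II lay within 1 kb of 7 of 26 outermost starts (26.9%), against 39.1% of all coding windows. The sets are unlike: each member enters once, while the 22132 coding windows belong to 15812 genes. ITGB5 counts as without Pol II here, though its inner starts had it. H3K4me1 of both lists was within 1 kb of 16 of the 26 (61.5%), against 61.3% of coding windows. Of the 7 starts with Pol II, 6 also had H3K4me1 there (85.7%), against 93.2% of coding windows with Pol II, and ITGA5 was the exception. The ratio of observed to expected CpG in the 300 bases had a median of 0.552 over the 26 starts, against 0.738 over all coding windows. By class it was 0.647 for 12 adhesion chains, 0.467 for 9 laminin chains and 0.283 for 4 leukocyte chains. Over all coding windows it was 0.842 with Pol II and 0.556 without. The members did not follow this strictly: LAMB1 at 0.935 and ITGB1 at 0.848 had no Pol II of both lists at their starts, and ITGB7 at 0.209 had it. The Pol II peaks of ITGB7 and LAMC1 lay within 1 kb of the start but outside the 300-base window. At ITGB7 the summits were 854 and 1200 bp inside the start.

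**Figure D5:**
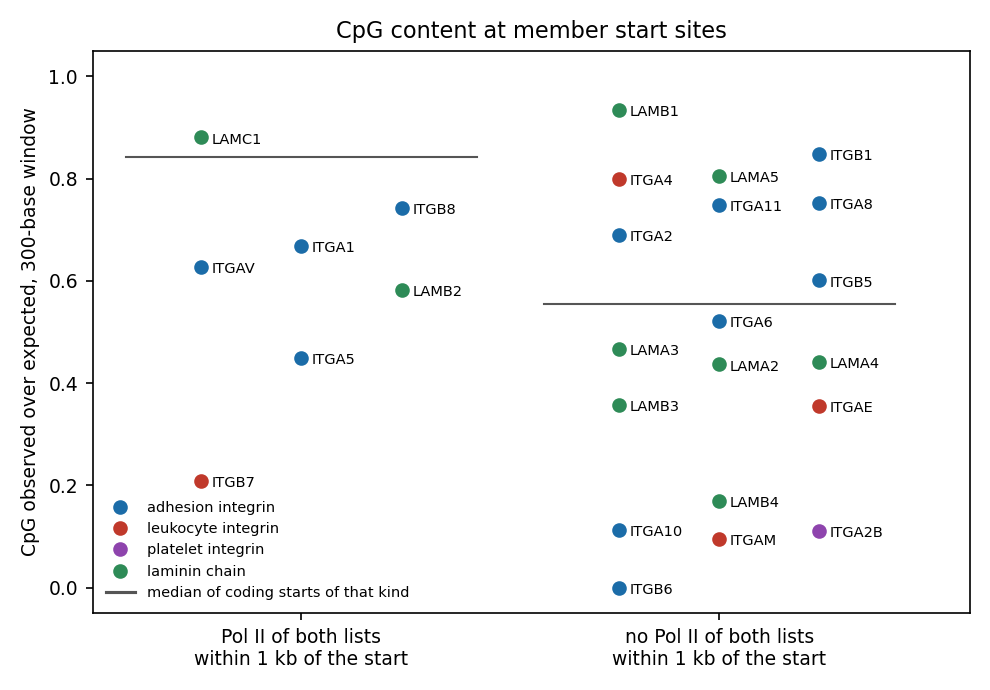
CpG observed over expected in the 300-base window at the outermost listed start of 26 genes (vertical axis), by presence of Pol II of both lists within 1 kb (horizontal axis); lines give the medians of all coding windows of each kind, 0.842 and 0.556. LAMB1 and ITGB1 lie high among the 19 starts without Pol II, and ITGB7 low among the 7 with it. The peaks of ITGB7 and LAMC1 lie outside their windows.

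Because both chains are needed for a receptor, the calls were also read by pairs known from textbooks. Of 24 integrin pairs, 1 had shared Pol II at an end of both genes, alphaV beta8. In 14 pairs 1 gene had it and in 9 neither. When Pol II inside the gene was allowed as well, both genes had it in 15 of 24 pairs, among them alphaV beta5, alpha5 beta1 and alpha3 beta1. ITGB1 was not called at an end, so no pair with beta1 could have it at both genes. Of 14 laminin trimers, 0 had Pol II at an end of all 3 genes, and 6 had it at an end or inside all 3. The 0 was fixed by the alpha genes, since every trimer holds an alpha chain and none of these genes was called at an end. Pairs share chains, so these counts are not independent.

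The genes that work with integrins and laminins were read by the same rule. Among 28 adaptors and kinases that join integrins to the cytoskeleton, 17 (60.7%) had shared Pol II at an end. The highest were RSU1, a partner of the ILK complex, with folds of 8.78 and 8.28, SHARPIN, an integrin inhibitor, with 7.96 and 4.64, and PTK2B, a kinase related to FAK, with 6.25 and 5.45. BCAR1, FERMT1 and FERMT3, the latter the kindlin of blood cells, had none at an end, though BCAR1 held 1011 bases of both lists inside. Of 10 membrane partners 7 had shared Pol II at an end, led by the urokinase receptor PLAUR (9.69 and 7.01). The integrin-binding heavy chain SLC3A2 (6.91 and 4.93) and the tetraspanin CD82 (6.26 and 4.84) came next. BSG and CD81 had none at an end, though 513 and 447 bases of both lists lay inside.

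Of 14 matrix ligands 7 had Pol II at an end, led by the fibrillin gene FBN1 (4.68 and 3.16), the tenascin gene TNC (3.97 and 3.79) and CCN2 (3.60 and 3.65). FBLN5, NPNT and POSTN had none. Of 11 counter-receptors of leukocyte integrins 3 had it, the junction protein F11R (6.79 and 5.45), ICAM3 (5.53 and 5.33) and JAM2 (4.25 and 4.47). CDH1, ICAM2 and ICAM4 had none at an end, though CDH1 held 858 bases of both lists inside. Of 15 other basement membrane genes and laminin partners 4 had it (26.7%), among them the matrix protein SPARC (5.93 and 4.97), the laminin receptor dystroglycan, DAG1 (5.86 and 4.54), and netrin 4, NTN4 (3.41 and 4.08). COL17A1, DST and FREM1 had none at an end, although DST held 12073 bases of Pol II of both lists inside and COL17A1 792. The share was thus above the 39.4% of all genes for adaptors, membrane partners and ligands, and below it for the other lists and for the integrin and laminin genes themselves.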

How the data were processed

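Wild-type hTERT-RPE1 cells were measured by CUT&Tag with 6 Pol II and 4 H3K4me1 libraries. The authors merged them into 4 deposited peak lists, 2 per target. Per the submitters' processing notes, BWA, SICER and deepTools were used with hg38. The sources used here do not say which tool wrote the lists, nor its threshold or any control. The deposited ratio was read as fold enrichment per peak, the deposited −log10 q was never below 1.00, and the other value the authors deposited is the summit's distance from the peak start. Depth is unknown because no read counts were used. 0 columns were left unmatched.

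Peaks on the autosomes and X were joined to RefSeq genes and start windows of GRCh38.p14 with Python 3.11.15, numpy 2.4.6 and pandas 2.3.3, and plotted with matplotlib 3.10.9. The interval code was tested on simulated data. Of several peaks at an end, the strongest by −log10 q is given. hg38 and GRCh38 name the same assembly. Exons, introns and UTRs were not used here. CpG observed over expected and letter matches were computed from the start windows. No statistical test was run: each target has 2 lists of 1 cell line, and counts are set beside those over all coding genes. Named were all members with Pol II at an end in either list, the 5 with the most bases of each target inside, each leukocyte or platelet member with a peak, and from each pathway list up to 3 with the highest mean fold and up to 3 without Pol II in alphabetical order. Further regions were named after their values were seen. The members, classes and lists were chosen with earlier results of these data known. Alternatives were single lists, above-median peaks, other windows, overlaps and start ends alone. Values of 1 member, and 1 neighbouring gene, are not reported here; the member stays in the counts.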

Additional observations from a re-analysis of the deposited data

How the results depend on the processing

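Of 51 alternative counts, 45 stayed within 1.5 times the value reported. Laminin chains with Pol II at an end numbered 2 to 4 with either list left out; the 4 came from list 1 alone, which added LAMA4 and LAMB3. With a window of 500 bp, or with the summit required in the window, laminin chains fell to 1 and leukocyte chains to 1, since LAMC1 and ITGB7 were lost. With the start end alone, leukocyte chains also numbered 1, as no start of ITGB2 was used here. Above-median peaks left 9 of the 10 members, without ITGA1, and a 2 kb window gave 14, adding ITGB1, ITGB3, LAMA4 and ITGAE. No paired analysis was possible because the results come from no test. Depth is unknown, so a missing peak does not show that Pol II is absent.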
